A study of Mus musculus with 9 samples.

Results

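miR-23 and miR-27 are encoded side by side at 2 places in the mouse genome, miR-23a and miR-27a on chromosome 8 and miR-23b and miR-27b within the gene Aopep on chromosome 13. Both arms of the 4 hairpins gave 8 mature miRNAs, which were followed here by name in a table of 1966 mature miRNAs. Small RNA libraries came from quadriceps of mice aged 90 days, 1 library per mouse and 3 mice per group. WT mice were C57BL/6J with intact alleles (Mbnl1+/+ Mbnl2+/+). Mbnl1KO mice were C57BL/6J, carried the deltaE3 allele of Mbnl1 on both chromosomes and were Mbnl2+/+. Mbnl2KO mice were Mbnl1+/+ on the strain B6.C-Tg(CMV-cre)1Cgn/J, in which a viral promoter active in most cell types drives Cre, and their labels gave the Mbnl2 alleles as deltaE2/deltaE2, deltaE2/deltaE3 and deltaE2/deltaE4 in replicates 1, 2 and 3. The paper describes deltaE2 on both chromosomes, so the alleles of replicates 2 and 3 are not settled, and the 3 mice were analysed as 1 group. The strain and the loss of Mbnl2 cannot be told apart in this design. MBNL1 and MBNL2 are RNA-binding proteins best known for regulating alternative splicing, and the comparison asked how the level of each miRNA differed when either was missing. Their mRNAs were not measured in these libraries, so the genotypes were not checked through them.

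A miRNA is cut from a hairpin that can give a mature strand from its 5′ arm (5p) and one from its 3′ arm (3p). Neighbouring hairpins of a cluster are commonly cut from 1 primary transcript, and the 3p strands of miR-23 and miR-27 are the ones known mainly to act on target mRNAs, which they recognise through the seed near their 5′ end. In skeletal muscle, miR-23a is known to repress the ubiquitin ligases of muscle atrophy, and miR-27 is known to repress Pax3 and myostatin, regulators of myogenic cells and of muscle mass. Both families are also abundant in the endothelium.

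The mature sequences show which members can be told apart and which share a seed. RefSeq held them for 7 of the 8 members (build GRCm38.p6), and they are given 5′ to 3′ with the seed, bases 2 to 8, in capitals.
mmu-miR-23a-3p: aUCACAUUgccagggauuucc
mmu-miR-27a-3p: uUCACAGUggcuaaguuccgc
mmu-miR-27b-3p: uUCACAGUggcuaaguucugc
mmu-miR-23a-5p: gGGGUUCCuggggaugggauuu
mmu-miR-23b-5p: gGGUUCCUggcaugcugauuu
mmu-miR-27a-5p: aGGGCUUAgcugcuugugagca
mmu-miR-27b-5p: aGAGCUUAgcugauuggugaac

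miR-27a-3p and miR-27b-3p shared their seed and differed at 1 of 21 bases, C19U (miR-27a-3p base, position from the 5′ end, miR-27b-3p base), so a read that ends before position 19 is the same for both. The study's methods describe perfect sense matches of reads to miRBase precursors, summed over each mature miRNA and a small margin. The study lists miR-24-3p among the miRNAs it measured in quadriceps, whereas the deposited table holds no counts of it. The deposited counts therefore differ from those the study analysed, how they were made is not given in the sources used here, and the division between these 2 members is uncertain. The 5p arms differed more and did not share a seed: miR-27a-5p and miR-27b-5p matched at 18 of 23 aligned positions, as did miR-23a-5p and miR-23b-5p. No other miRNA of the table with a RefSeq mature sequence shared a member's seed. The hairpins themselves matched at 73.8% of aligned positions between Mir23a and Mir23b and at 61.3% between Mir27a and Mir27b.

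On GRCm38.p6, RefSeq placed Mir23a at chr8:84208518-84208592 and Mir27a at chr8:84208672-84208758, and Mir23b at chr13:63300484-63300557 and Mir27b at chr13:63300712-63300784, all on the plus strand. In each cluster a miR-24 hairpin followed, and from the first base of miR-23 to the last of miR-24 the cluster spanned 404 bases on chromosome 8 and 792 on chromosome 13. In the GENCODE annotation of GRCm39, Mir23b lay in an intron of 9 Aopep transcripts and in an exon of 0, and Mir27b lay in an intron of 8 and in an exon of 1. The gene Fancc was annotated across them on the opposite strand. Mir23a and Mir27a overlapped no other annotated gene, and the closest protein-coding gene was Zswim4, 2086 and 1920 bases away. MBNL proteins are known to bind RNA at short motifs with GC between pyrimidines, and the letters UGCU or UGCC or CGCU or CGCC were counted on the transcribed strand only, with overlapping matches allowed. Mir23b held 3 of them, Mir23a and Mir27a held 2 each and Mir27b held 1. Of the hairpins within 5 bases of the same length, 61.1% held at least 1 for Mir23b, 63.5% for Mir23a, 74.9% for Mir27a and 57.5% for Mir27b. A count at least as high was found in 9.26% for Mir23b, 25.6% for Mir23a, 43.2% for Mir27a and 57.5% for Mir27b. These matches are letters in the hairpin and no measure of binding.

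**Figure D1:**
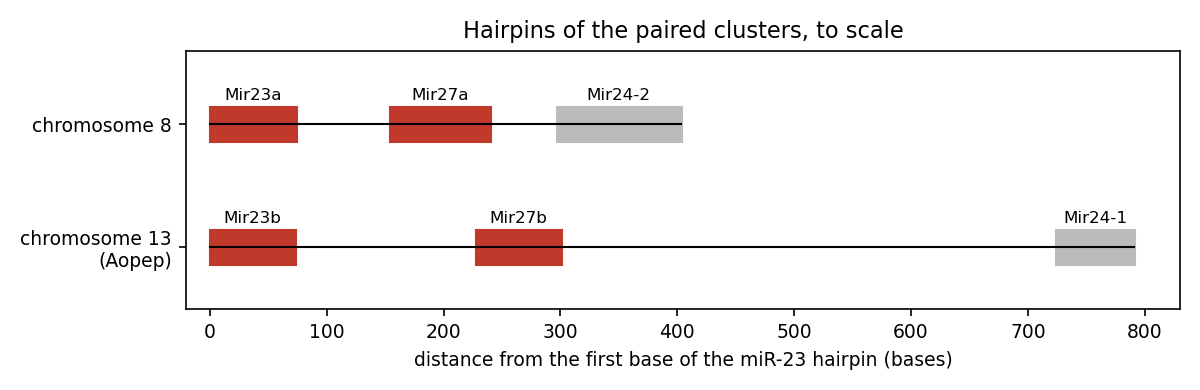
Position of the hairpins in both clusters, as distance in bases from the first base of the miR-23 hairpin; boxes are hairpins, those of miR-23 and miR-27 in red and those of miR-24 in grey. The clusters have the same order and span 404 and 792 bases.

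Library totals ran from 4761271 to 6277018 counts, and miR-1a-3p of the myofibres took 61.4% to 68.6% of those of the Mbnl1KO libraries, 67.2% to 73.7% of the Mbnl2KO ones and 69.7% to 71.3% of the WT ones. The Mbnl1KO shares lay below those of WT and overlapped those of Mbnl2KO. Counts were therefore normalised with TMM, and normalised counts are on the scale of a library of mean total. The 8 miRNAs of myofibres used as markers made up 72.1% to 79.4% of all counts in quadriceps, and of these miR-486a-5p was listed at 0. The spread between replicate mice exceeded that of counting in every pair (chi-square divided by its degrees of freedom, 38.8 to 272). In bulk tissue, fewer cells of a type and less RNA per cell cannot be told apart.

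The members spanned more than 3 orders of abundance. miR-23a-3p and miR-23b-3p were the most abundant, with normalised counts of 14316 ± 1151 (SD, n = 3) and 12365 ± 581 in WT, followed by miR-27b-3p with 3968 ± 226. The 5p arms of miR-27 were far lower, at 140 ± 17.8 for miR-27b-5p and 94.0 ± 11.8 for miR-27a-5p. miR-23a-5p (14.4 ± 4.97), miR-27a-3p (6.19 ± 2.15) and miR-23b-5p (4.14 ± 2.92) were close to the limit of these libraries, and the WT libraries of miR-27a-3p (3.73 to 7.72) and miR-23b-5p (1.93 to 7.46) overlapped. The most abundant arm was 3p for miR-23a, miR-23b and miR-27b, where the 5p arm gave at most 0.145%, 0.0751% and 4.34% of the counts of both arms in any library. miR-27a had the reverse order in this table, and its 5p arm gave 84.5% to 96.7% of the counts of both arms. That order rests on 3 to 26 counts of miR-27a-3p per library, whose division from miR-27b-3p is uncertain.

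In Mbnl1KO, miR-23a-3p and miR-23b-3p were 1.97-fold and 2.04-fold higher than in WT, miR-27b-3p was 1.65-fold higher, and miR-27b-5p followed them at 1.98-fold. Of the 8 members, 7 passed the filter on low counts, a mean normalised count above 10 over the 6 libraries compared. For 6 of them the mean was above 10 in both groups, and of these 5 were higher at an adjusted p under 0.05 and 0 were lower. The seventh, miR-27a-3p, passed only through its Mbnl1KO libraries, so it had to differ and is not counted with them. In the same fit, 33.4% of all 317 tested miRNAs were called and 18.9% were called higher. The median log2 fold change was 0.98 over those 6 members and -0.01 over all tested miRNAs. The 8 members together gave 30908 ± 1433 normalised counts in WT and 63408 ± 1864 in Mbnl1KO. Of all raw counts this was 0.471% to 0.543% of all counts in WT and 1.13% to 1.43% in Mbnl1KO. Leaving miR-1a-3p out of the total, the share was 1.64% to 1.82% in WT and 3.26% to 3.72% in Mbnl1KO.

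miR-23a-3p had raw counts of 12844, 15195 and 12263 in the WT libraries, 38684, 30433 and 31282 in the Mbnl1KO libraries and 16628, 17193 and 11827 in the Mbnl2KO libraries. All 3 Mbnl1KO libraries lay above the other 6, as for 22.1% of all tested miRNAs against WT and 22.7% against Mbnl2KO. Its log2 fold change in Mbnl1KO was 0.98 (SE 0.15, adjusted p = 2.14e-09, edgeR's quasi-likelihood test), and its rank by abundance moved from 22 or 23 in WT to between 13 and 15. miR-23b-3p had 12016, 13477 and 9565 counts in WT, 35125, 24090 and 31464 in Mbnl1KO and 13310, 14584 and 11277 in Mbnl2KO. It showed the same separation, with a log2 fold change of 1.03 (SE 0.15, adjusted p = 3.30e-10, edgeR).

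miR-27b-3p had raw counts of 3853, 4368 and 3039 in WT, 9659, 6487 and 7426 in Mbnl1KO and 4052, 4088 and 3294 in Mbnl2KO. The Mbnl1KO libraries were again the 3 highest, and the log2 fold change was 0.72 (SE 0.15, adjusted p = 1.49e-05, edgeR). The opposite arm of the same hairpin, miR-27b-5p, had 118, 157 and 120 counts in WT, 362, 286 and 337 in Mbnl1KO and 148, 133 and 94 in Mbnl2KO. Its Mbnl1KO libraries lay above those of both other groups, as for 22.1% of all tested miRNAs against WT and 22.7% against Mbnl2KO. The log2 fold change of miR-27b-5p was 0.98 (SE 0.19, adjusted p = 3.87e-06, edgeR).

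miR-27a-3p had few counts and passed the filter only through Mbnl1KO, where its mean was 20.6 normalised counts, against 6.19 in WT and 4.90 in Mbnl2KO. Its raw counts were 7, 8 and 3 in WT, 26, 21 and 23 in Mbnl1KO and 7, 4 and 3 in Mbnl2KO. The Mbnl1KO libraries held more of it than any other, as for 22.1% of all tested miRNAs against WT and 22.7% against Mbnl2KO. Passing only through Mbnl1KO, miR-27a-3p had to differ, so no test from the filtered fit is given. In a fit with no filter beyond 1 count, where it did not need that group to be tested, the log2 fold change was 1.61 (adjusted p = 0.00700, edgeR). At these counts, a share of 0.268% to 0.323% of the pooled miR-27-3p counts in Mbnl1KO was assigned to miR-27a-3p, against 0.0986% to 0.183% in WT, and the single base that separates it from miR-27b-3p bears on that assignment. Whether misassigned miR-27b-3p reads contributed was not tested.

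Its opposite arm, miR-27a-5p, was the tested member that missed the threshold. It had raw counts of 80, 100 and 84 in WT, 189, 115 and 125 in Mbnl1KO and 99, 117 and 59 in Mbnl2KO. All Mbnl1KO normalised counts (108 to 145) exceeded the WT ones (81.1 to 104), as was the case for 22.1% of all tested miRNAs, but the log2 fold change of 0.35 (SE 0.23) had an adjusted p of 0.239 in edgeR. With library totals in place of TMM, a scaling that raised the median of all tested miRNAs to 0.30, it was 0.66 (adjusted p = 0.0421, edgeR). The 95% interval of the main fit, -0.10 to 0.79, takes in both no change and changes of the size seen for miR-27b-3p.

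The low-count 5p arms of miR-23 were less certain. miR-23a-5p had raw counts of 17, 18 and 7 in WT, 56, 22 and 32 in Mbnl1KO and 16, 25 and 16 in Mbnl2KO, and its log2 fold change was 1.02 (SE 0.36, adjusted p = 0.0198, edgeR). This call was lost without Mbnl1KO replicate 1 (0.71, adjusted p = 0.181, edgeR), without WT replicate 3 (0.78, adjusted p = 0.135, edgeR) and with DESeq2 (1.00, adjusted p = 0.142). miR-23b-5p had 3, 2 and 6 counts in WT, 17, 5 and 8 in Mbnl1KO and 10, 2 and 5 in Mbnl2KO. It stayed below the filter in all 3 comparisons, and its groups overlapped.

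**Figure D2:**
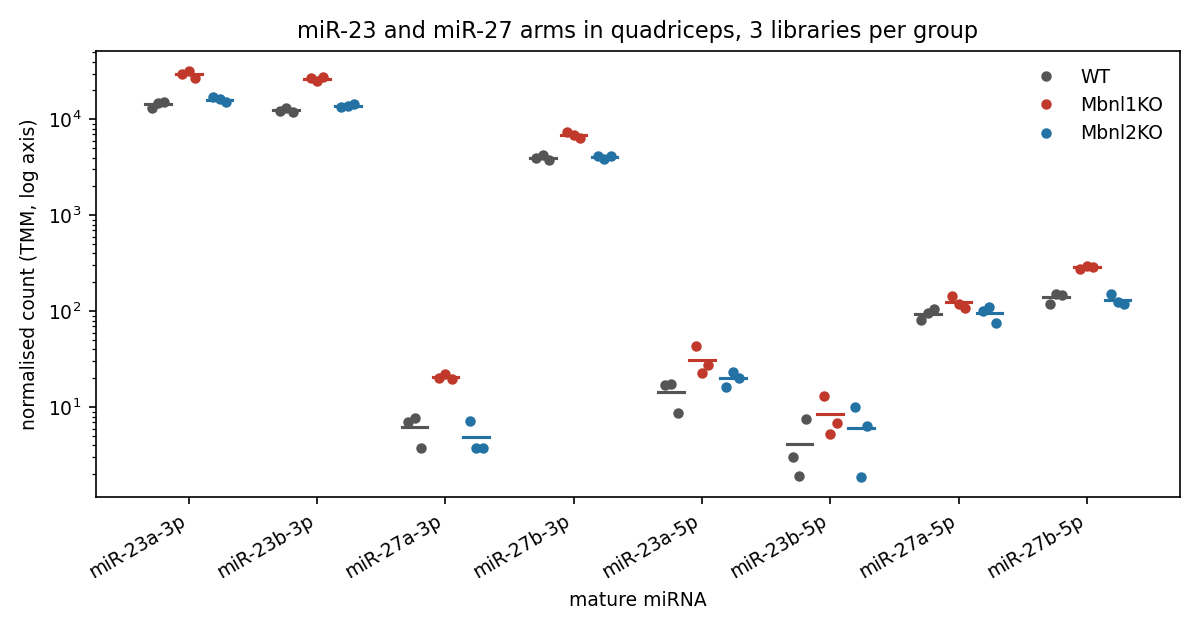
Normalised counts (log axis) of the 8 mature miRNAs in each library, by group; points are libraries and lines are group means. For miR-23a-3p, miR-23b-3p, miR-27b-3p, miR-27b-5p and miR-27a-3p the 3 Mbnl1KO libraries sit above all 6 others. Of all tested miRNAs, 22.1% were separated upwards from WT and 22.7% from Mbnl2KO. miR-27a-3p passed the filter only through Mbnl1KO.

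In Mbnl2KO, 0 of the 6 members that passed the filter were called in edgeR, where 5.8% of 293 tested miRNAs were, and 0 had an unadjusted p under 0.05. The 17 calls over all miRNAs fell to 4 when WT replicate 2 was left out, to 9 for WT replicate 3 and to 11 for Mbnl2KO replicate 1, and rose to 26 when Mbnl2KO replicate 3 was left out. DESeq2 and the other settings tried also called 0. The log2 fold changes lay between -0.09 and 0.44, with a median of 0.09 against 0.01 over all tested miRNAs. The intervals exclude a change of the size seen in Mbnl1KO for the abundant members: miR-23a-3p differed by 0.16 (95% interval -0.10 to 0.41), miR-23b-3p by 0.16 (-0.09 to 0.40) and miR-27b-3p by 0.02 (-0.23 to 0.28). For miR-23b-3p the normalised counts were 13552 to 14287 in Mbnl2KO and 11893 to 13013 in WT, so the groups did not overlap, as for 12.6% of all tested miRNAs, although the difference missed the threshold (adjusted p = 0.526, edgeR). miR-23a-5p, at 0.44, had an interval of -0.36 to 1.23 and could not be placed.

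Direct comparison of both knockouts asks whether the difference between them is itself larger than the spread. In Mbnl1KO against Mbnl2KO, 4 of the 6 members with a mean above 10 in both groups were called, each of them higher in Mbnl1KO, where 26.9% of 309 tested miRNAs were called and 16.5% were called higher. For each of these 4 all Mbnl1KO libraries were above all Mbnl2KO libraries, as for 22.7% of all tested. miR-23a-3p differed by 0.85 (SE 0.14, adjusted p = 4.51e-05, edgeR) and miR-23b-3p by 0.91 (SE 0.14, adjusted p = 1.18e-05, edgeR). miR-27b-3p differed by 0.73 (SE 0.14, adjusted p = 0.000205, edgeR). Its 5p arm, miR-27b-5p, was 2.14-fold higher (adjusted p = 8.36e-05, edgeR). miR-27a-3p again passed the filter only through its Mbnl1KO counts, so no test from that fit is given. With no filter beyond 1 count, miR-27a-3p differed by 2.00 (adjusted p = 0.00287, edgeR). miR-23a-5p (0.62, interval -0.06 to 1.31) and miR-27a-5p (0.35, interval -0.12 to 0.81) were not called. This comparison and that with WT share the Mbnl1KO libraries.

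**Figure D3:**
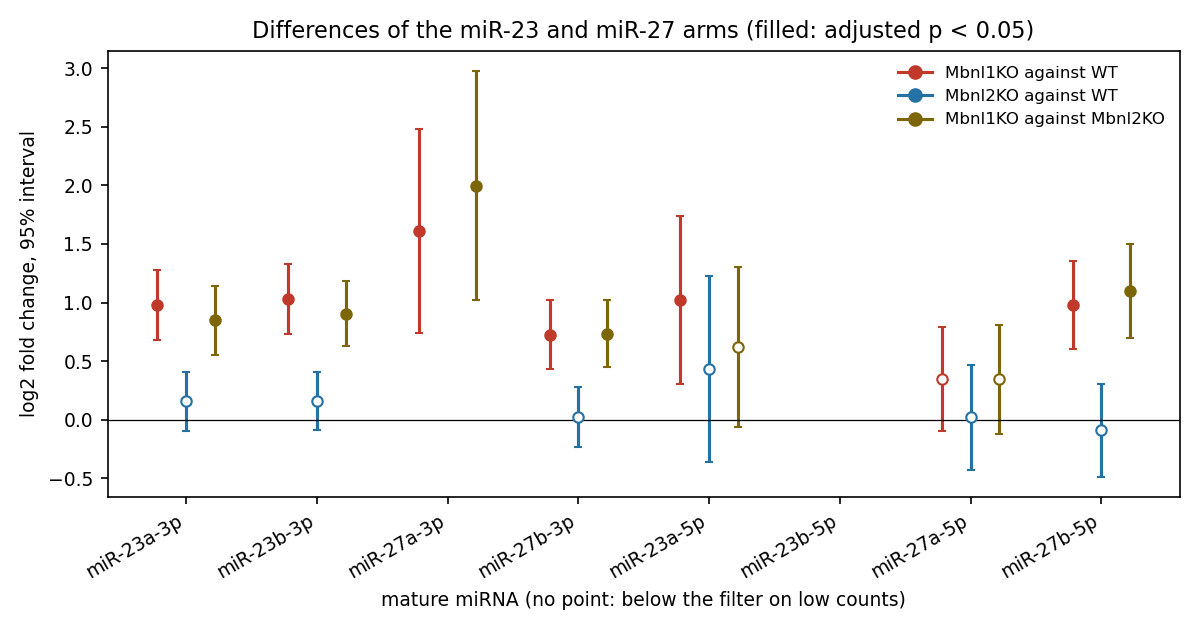
Log2 fold change of each member in the 3 comparisons, with 95% intervals from edgeR. Filled points have an adjusted p under 0.05, and members below the filter on low counts have no point. miR-27a-3p passed the filter only through Mbnl1KO, so its filled points are not read as calls. The Mbnl1KO points of miR-23a-3p, miR-23b-3p, miR-27b-3p and miR-27b-5p against WT lie between 0.72 and 1.03, and the Mbnl2KO points lie between -0.09 and 0.44.

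Reads of close paralogs can be divided wrongly, so counts were also summed over all miRNAs with the same number and arm. The letter and locus number of a name were ignored, so the a and b copies were summed. All 4 sums, miR-23-3p, miR-23-5p, miR-27-3p and miR-27-5p, were called higher in Mbnl1KO than in WT by edgeR, where 34.2% of 263 tested entries of the summed table were called. The normalised sum of miR-23-3p was 26681 ± 1296 in WT, 56051 ± 1457 in Mbnl1KO and 29897 ± 607 in Mbnl2KO, and its log2 fold change in Mbnl1KO was 0.97 (SE 0.13, adjusted p = 2.26e-07, edgeR). The sum of miR-27-3p was 3974 ± 227 in WT and 6903 ± 502 in Mbnl1KO, with a log2 fold change of 0.69 (SE 0.14, adjusted p = 0.000247, edgeR). miR-27-5p differed by 0.72 (SE 0.17, adjusted p = 0.000928, edgeR) and miR-23-5p by 0.99 (SE 0.33, adjusted p = 0.0189, edgeR), the latter not called with DESeq2 (0.97, adjusted p = 0.0958) and lost in 2 of 6 fits that each left out 1 library (0.67, adjusted p = 0.194, without Mbnl1KO replicate 1 and 1.03, adjusted p = 0.0673, without WT replicate 2, edgeR). The summed table has TMM factors of its own, which put the miR-23-3p sum below both of its paralogs; with the factors of the unsummed table, chosen after seeing this, the sums differed by 1.00, 1.02, 0.73 and 0.76 in the order named above. In Mbnl2KO 0 of the 4 sums were called by edgeR, where 2.86% of 245 entries were, and 0 had an unadjusted p under 0.05; miR-23-3p came closest at 0.19 (adjusted p = 0.257). Between the knockouts 3 sums were called, where 30.7% of 257 entries were: miR-23-3p at 0.77, miR-27-3p at 0.63 and miR-27-5p at 0.73.

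Comparing the loci by the abundant strand gave no detectable difference, and this comparison rests on how the table divided reads between miR-23a-3p and miR-23b-3p, which could not be checked. The Aopep cluster gave 53.3% ± 2.33 of the members' counts in WT, 53.1% ± 2.68 in Mbnl1KO and 52.8% ± 2.14 in Mbnl2KO. This share also rests on the uncertain division of miR-27-3p counts, of which miR-27a-3p was assigned at most 0.323% in any library. Of the miR-23-3p counts alone, miR-23b-3p gave 46.4% ± 2.32 in WT, 47.3% ± 2.99 in Mbnl1KO and 46.4% ± 2.22 in Mbnl2KO. The ratio of miR-23b-3p to miR-23a-3p, taken within each library and so free of the library's scaling, was 0.935, 0.887 and 0.780 in WT, 0.908, 0.792 and 1.01 in Mbnl1KO and 0.800, 0.848 and 0.953 in Mbnl2KO. The groups overlapped. On the log2 scale the ratio differed by 0.05 between Mbnl1KO and WT (95% interval -0.23 to 0.34, adjusted p = 0.834, limma), so a change in the balance of the loci by more than 0.34 is outside this interval.

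For the 5p arms of miR-27 the ratio of the copies was called in Mbnl1KO, but not in most fits that left out 1 library. The ratio of miR-27b-5p to miR-27a-5p was 1.48, 1.57 and 1.43 in WT, 1.92, 2.49 and 2.70 in Mbnl1KO and 1.49, 1.14 and 1.59 in Mbnl2KO. Every Mbnl1KO library was above the other 6, a separation upwards that 22.2% of all pairs showed against WT and 30.8% against Mbnl2KO. On the log2 scale the difference was 0.65 against WT (SE 0.19, adjusted p = 0.0273, limma over 27 paralog pairs, of which 33.3% were called) and 0.75 against Mbnl2KO (SE 0.20, adjusted p = 0.0268, limma over 26 pairs, of which 30.8% were called). Against WT, the call was lost in 5 of the 6 fits that left out 1 library, at adjusted p of 0.0702 without Mbnl1KO replicate 2, 0.0873 without Mbnl1KO replicate 3 and 0.0891, 0.0648 and 0.0575 without WT replicates 1, 2 and 3 (limma), with differences of 0.55 to 0.80 over the 6 fits. Against Mbnl2KO, among the fits that left out 1 library, it was lost without Mbnl1KO replicates 2 (0.0854) and 3 (0.0958) and Mbnl2KO replicates 1 (0.0576) and 2 (0.0893), again as adjusted p from limma. The number of all pairs called fell with it, from 9 to 0 without Mbnl1KO replicate 2, 3 without Mbnl1KO replicate 3 and 5 without WT replicate 1 or 3 against WT, and from 8 to between 0 and 4 in the 4 fits against Mbnl2KO that lost the call.

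The 3p strands of miR-27 passed the filter on both means only through the Mbnl1KO counts of miR-27a-3p, so the direction of this ratio follows from how the pair entered, and its values are given as a description with no test. The ratio of miR-27b-3p to miR-27a-3p was 550, 546 and 1013 in WT, 372, 309 and 323 in Mbnl1KO and 579, 1022 and 1098 in Mbnl2KO. The 3 Mbnl1KO libraries were the lowest, a separation downwards that 18.5% of all pairs showed against WT and 19.2% against Mbnl2KO. The mean difference was -0.91 on the log2 scale against WT and -1.24 against Mbnl2KO, resting on 3 to 26 counts of miR-27a-3p per library, and with a pseudocount of 5 that against WT was -0.33. Between Mbnl2KO and WT, no paralog ratio of miR-23 or miR-27 was called, where 4% of 25 pairs were: the log2 differences were 0.00 for miR-23b-3p to miR-23a-3p (interval -0.24 to 0.24) and -0.10 for miR-27b-5p to miR-27a-5p (-0.50 to 0.31).

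Ratios of the 2 arms of a hairpin show whether both strands moved together. For miR-27b, the 5p arm was 2.97%, 3.47% and 3.80% of the counts of both arms in WT, 3.61%, 4.22% and 4.34% in Mbnl1KO and 3.52%, 3.15% and 2.77% in Mbnl2KO. The difference in Mbnl1KO, 0.26 on the log2 scale (interval -0.12 to 0.64), was not called against WT, where 5.19% of 77 hairpins were. Fits that each left out 1 library gave 0.16 to 0.34. Against Mbnl2KO the difference was 0.38 (interval -0.04 to 0.80) and was not called. For miR-23a the difference was 0.05 with a wide interval of -0.55 to 0.64. For miR-27a the 5p arm was 92.0%, 92.6% and 96.6% in WT, 87.9%, 84.6% and 84.5% in Mbnl1KO and 93.4%, 96.7% and 95.2% in Mbnl2KO. This pair of arms likewise passed only through the Mbnl1KO counts of miR-27a-3p, so its values too are a description with no test. Its Mbnl1KO libraries were the 3 lowest, as for 7.79% of all hairpins against WT and 8% against Mbnl2KO, with log2 differences of -1.30 and -1.61. Against Mbnl2KO 8% of 75 hairpins were called by limma. Between Mbnl2KO and WT, 0 of 67 hairpins were called by limma (0%). The hairpins miR-23a and miR-27b, with log2 differences of 0.34 and -0.12, were among them.

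Within the Aopep cluster, the ratio of miR-23b-3p to its neighbour miR-27b-3p was highest in Mbnl1KO. It was 3.12, 3.09 and 3.15 in WT, 3.64, 3.71 and 4.24 in Mbnl1KO and 3.28, 3.57 and 3.42 in Mbnl2KO. The groups did not overlap, and each comparison had a two-sided exact permutation p of 0.10, the smallest that 3 against 3 libraries allow. Over all neighbouring hairpins at most 1000 bases apart, each by its more abundant arm, the ratios did not overlap in 42.3% of 26 pairs for Mbnl1KO against WT, 24% of 25 for Mbnl2KO against WT and 44% of 25 between the knockouts, so such a separation was common. On chromosome 8, the ratio of miR-23a-3p to miR-27a-5p was 161, 152 and 146 in WT, 205, 265 and 250 in Mbnl1KO and 168, 147 and 200 in Mbnl2KO, with exact permutation p of 0.10 for Mbnl1KO against either group and 0.30 for Mbnl2KO against WT. These 6 tests were chosen after the values were seen and none can pass 0.05.

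**Figure D4:**
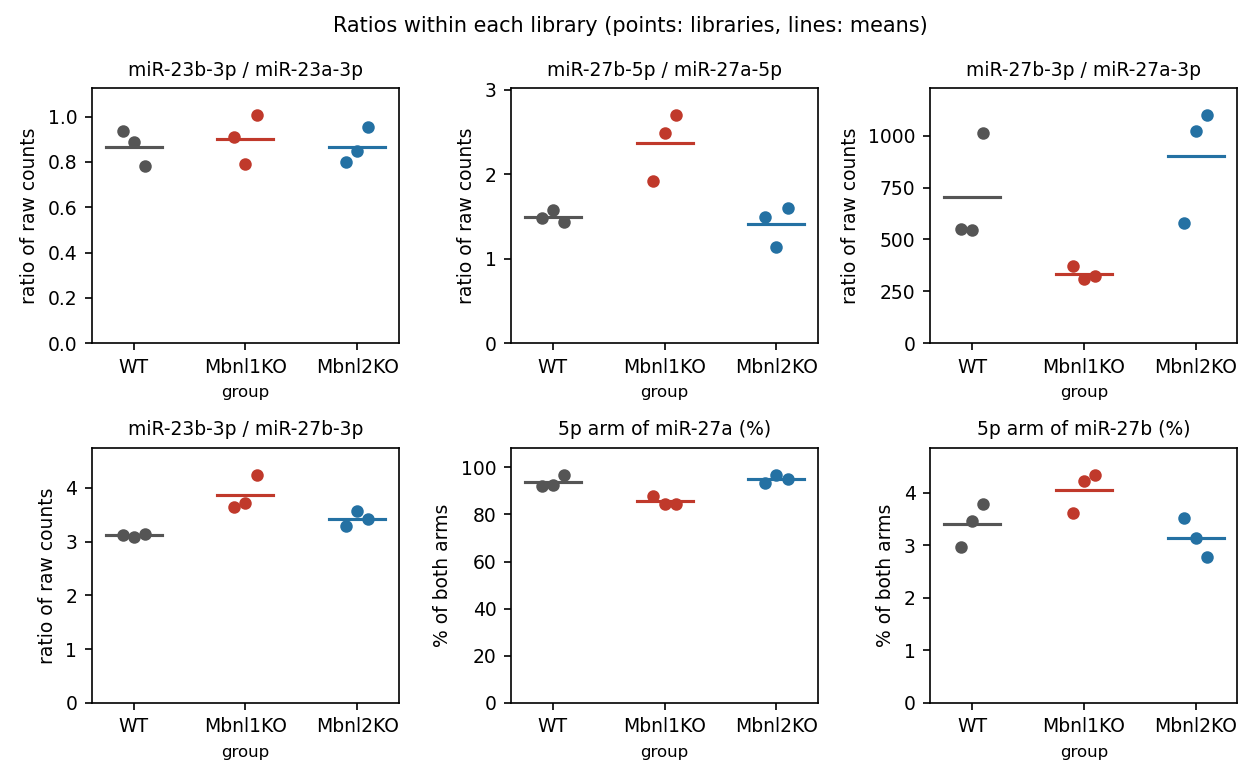
Ratios of raw counts within each library, between paralogs, between neighbours and, as percent of both arms, between arms; points are libraries and lines are group means, and each axis starts at 0. miR-23b-3p to miR-23a-3p overlaps between groups at 0.780 to 1.01, whereas miR-27b-5p to miR-27a-5p is 1.92 to 2.70 in Mbnl1KO and 1.14 to 1.59 in the other 6 libraries.

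The third miRNA of each cluster could not be followed in the deposited table, although the study lists miR-24-3p and miR-24-2-5p as measured in these mice. miR-24-3p, miR-24-1-5p and miR-24-2-5p were listed at 0 in all 9 libraries, as were miR-3074-5p and miR-3074-2-3p, which are annotated on the opposite strand of the miR-24 hairpins. RefSeq held a mature sequence for 1675 entries. Of the 69 of these with an annotated mature miRNA on the opposite strand 67 (97.1%) were at 0, against 824 of 1606 (51.3%) without one. RefSeq held no position for miR-3074-1-3p, so what lies opposite miR-24-1-5p, also at 0, could not be read from it. Whether the opposite strand set any of these 0 values was not tested. The remaining partner, miR-3074-1-3p, had 9, 11 and 6 counts in WT, 21, 13 and 14 in Mbnl1KO and 1, 10 and 14 in Mbnl2KO. Its WT libraries, at 7.46 to 10.6 normalised counts, lay near the filter and its Mbnl1KO libraries, at 12.1 to 16.1, let it pass, so no test of it is given.

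Among the 160 other miRNAs with a mean above 100, a few had profiles across the 9 libraries close to those of the members. Likeness was measured as the root mean square difference of log2 levels after centring each miRNA, with no test. miR-322-5p was the nearest to miR-23a-3p (0.16), miR-23b-3p (0.22) and miR-27b-3p (0.15). By the same measure, miR-23a-3p and miR-23b-3p differed from each other by 0.12 and both were within 0.15 of miR-27b-3p. The next for miR-23a-3p were miR-181c-5p (0.21) and miR-539-5p (0.26), for miR-23b-3p miR-411-5p (0.23) and miR-539-5p (0.25), and for miR-27b-3p miR-382-5p (0.19) and miR-378a-5p (0.19). For miR-27a-3p they were miR-369-3p (0.29), miR-495-3p (0.45) and miR-107-3p (0.48). A flat profile would lie at a member's own spread, which was 0.47 for miR-23a-3p, 0.49 for miR-23b-3p, 0.37 for miR-27b-3p and 0.95 for miR-27a-3p.

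Marker miRNAs of other cell types were set beside the members. Over all tested miRNAs, 33.4% were called in Mbnl1KO against WT and 5.8% in Mbnl2KO against WT. All 4 entries of the endothelial miR-126 were listed at 0, so the endothelium, where miR-23 and miR-27 are abundant, had no usable marker and its part in the higher levels was not tested. The summed level of the 4 vessel wall miRNAs (miR-143 and miR-145a) was 29053 to 31637 normalised counts in WT, with 28154 to 43278 in Mbnl1KO and 38164 to 42835 in Mbnl2KO, and 0 of the 4 were called in Mbnl1KO. In Mbnl2KO, where no member was called, miR-143-3p was higher by 0.47. The 6 fibroblast miRNAs summed to 9544 to 9990 in WT and 7629 to 8867 in Mbnl1KO, with 0 called higher and 2 called lower, miR-199a-3p and miR-199b-3p (both -0.43). Of 6 immune miRNAs, 5 were tested in Mbnl1KO: miR-155-5p was higher by 0.86, and miR-223-3p (-0.87), miR-142a-5p (-0.84) and miR-146a-5p (-0.49) were lower, while miR-142a-3p was listed at 0. The 3 red blood cell miRNAs summed to 518 to 740 in WT and 554 to 1063 in Mbnl1KO with 0 of 2 tested called. Of the 8 myofibre miRNAs, 6 were tested: miR-206-3p (1.93) and miR-133b-3p (0.72) were higher and miR-1a-3p (-0.40) was lower in Mbnl1KO. miR-206-3p was also higher in Mbnl2KO, by 0.89 (adjusted p = 0.00213, edgeR).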

How the data were processed

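The authors deposited raw counts of reads per mature miRNA, 1 column per library, in a single table with no normalization; the study's methods describe perfect sense matches of reads to miRBase precursors, summed over the mature region with a small margin, but the study lists miR-24-3p as measured and the deposited table holds no counts of it, so the table differs from the counts the study analysed and how it was made, including the treatment of reads matching several miRNAs, is not given in the sources used here. Small RNA libraries were made from quadriceps RNA of 3 WT, 3 Mbnl1KO and 3 Mbnl2KO mice, grouped by their labels. The members, marker lists and tests were chosen with earlier results of these data known.

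Pairs of groups were fitted on their 6 libraries with edgeR 4.0.16 (R 4.3.3), TMM and the robust quasi-likelihood test, for miRNAs with a mean normalised count above 10, with Benjamini-Hochberg adjustment over all tested and a threshold of 0.05. Displayed normalised counts use TMM over all 9 libraries. The filter was first scaled to the mean effective library size and was changed, after values were seen, to the mean library total, which brought the number tested to that of an earlier analysis; the first scaling is given as an alternative. Paralog sums were fitted the same way. Log2 ratios of raw counts within a library (pseudocount 0.5) were fitted with limma 3.58.1 over all a and b pairs or all hairpins with both arms, both means above 10, with a variance trend on the mean log2 count of the pair. A first version had used the lower count of the pair for the trend, was replaced after its values had been seen because the plan named the mean, and is given as an alternative. Ratios of neighbouring hairpins and their background were added after the values were seen. DESeq2 1.42.0 was an alternative. The fits were tested on simulated counts. Named miRNAs were the members, their cluster partners, other miRNAs with a member's seed, and the 3 nearest profiles to each 3p member. Sequences and positions are from RefSeq (GRCm38.p6) and intron placement is from GENCODE (GRCm39). Counts carry no molecular identifiers. The p-values of edgeR, limma and DESeq2 set each difference against the spread between 3 mice per group, moderated across all tested miRNAs or ratios.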

Additional observations from a re-analysis of the deposited data

How the results depend on the processing

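The alternatives were other scalings, filters, tests and thresholds, all 9 libraries in a single fit, the replicate number as a block, and each library left out in turn. The factors of the unsummed table, the trend on the lower count of a pair and the filter on the effective library size were added after seeing the data; the last tested and called slightly different numbers (107, 17 and 85 called in the 3 comparisons, against 106, 17 and 83) and changed no call of a member or sum. The calls of miR-23a-3p, miR-23b-3p, miR-27b-3p and miR-27b-5p in Mbnl1KO against either group held in every alternative that tested them. The miR-27b-3p to miR-27a-3p ratio and the arm ratio of miR-27a entered only through the Mbnl1KO counts of miR-27a-3p. They are among the numbers of ratios called below, and their calls are no evidence of a difference. The cause of the changes below was not tested.

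With library totals in place of TMM, a scaling under which the median over all tested miRNAs moved from -0.01 to 0.30 (log2) in Mbnl1KO against WT, miR-27a-5p was called at 0.66 there, and the miR-23-5p sum at 0.88 against Mbnl2KO. miR-23a-5p in Mbnl1KO against WT was not called with DESeq2 (1.00), with no filter beyond 1 count (1.02) or at a threshold of 0.01 (1.02), and the miR-23-5p sum was not called with DESeq2 (0.97) or at 0.01 (0.99). With a pseudocount of 5, 1 paralog ratio was called in Mbnl1KO against WT in place of 2, miR-27b-3p to miR-27a-3p was -0.33, the arms of miR-23a reversed to -0.21, 0 arm ratios were called against Mbnl2KO, and that of miR-27a was -0.94. With the trend on the lower count, 1 paralog ratio was called against WT (miR-27b-3p to miR-27a-3p was -0.91, not called) and 0 arm ratios against Mbnl2KO (miR-27a, -1.61). With both means above 100, 1 paralog ratio was called in Mbnl1KO against WT and 1 against Mbnl2KO, and 0 arm ratios, since the low-count pairs were not tested.

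Same-numbered libraries did not deviate together (correlations of -0.15 to 0.15), so the numbers were not taken as pairs. With the replicate block, 1 paralog ratio was called in Mbnl1KO against Mbnl2KO in place of 2, with miR-27b-5p to miR-27a-5p at 0.75 and not called, and no other call of a member, sum or ratio named here was changed.

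Leaving out 1 library, in Mbnl1KO against WT, gave 0.71 to 1.20 for miR-23a-5p, 0.21 to 0.46 for miR-27a-5p, 0.67 to 1.18 for the miR-23-5p sum, 0 to 2 paralog ratios called, -0.029 to 0.14 for miR-23b-3p to miR-23a-3p, -1.03 to -0.66 for miR-27b-3p to miR-27a-3p, 0.55 to 0.80 for miR-27b-5p to miR-27a-5p and -0.31 to 0.29 for the arms of miR-23a. In Mbnl2KO against WT, it gave 0.21 to 0.60 for miR-23a-5p, -0.067 to 0.18 for miR-27a-5p, -0.0063 to 0.085 for miR-27b-3p, -0.095 to 0.11 for the miR-27-5p sum, -0.074 to 0.057 for miR-23b-3p to miR-23a-3p, -0.19 to 0.050 for miR-27b-5p to miR-27a-5p and -0.019 to 0.56 for the arms of miR-23a. In Mbnl1KO against Mbnl2KO, it gave 0.29 to 0.78 for miR-23a-5p, 0.17 to 0.46 for miR-27a-5p, 0 to 2 paralog ratios called, -0.029 to 0.14 for miR-23b-3p to miR-23a-3p, -1.50 to -1.10 for miR-27b-3p to miR-27a-3p, 0.60 to 0.89 for miR-27b-5p to miR-27a-5p, 0 to 1 arm ratios called and -1.84 to -1.35 for the arms of miR-27a. Over all features, leaving out 1 library gave 1 to 26 paralog sums called in Mbnl2KO against WT in place of 7, 0 to 3 paralog ratios in place of 1 and 0 to 2 arm ratios in place of 0; arm ratios called in Mbnl1KO were 2 to 7 against WT in place of 4 and 2 to 9 against Mbnl2KO in place of 6. Depth limits miR-27a-3p, miR-23a-5p and miR-23b-5p, with 2 to 56 counts per library.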
